A study of Mus musculus with 3 samples.

Results

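Spliced isoforms that were assembled from the reads at loci already holding a RefSeq transcript numbered 3114 for mock, 2739 for the library labelled shKSRP and 3073 for BMP2, which makes 8926 of the 135385 transcripts listed in all. They were selected on a measured value: an assembled transcript was a member if it had at least 2 exons, an FPKM (fragments scaled to transcript length and to library depth) of 5 or more, and at least 1 RefSeq transcript at its locus. Just inside this limit were isoforms of Thrap3 at 5.0005 FPKM in mock, Tbl2 at 5.0011 in the library labelled shKSRP and Fubp1 at 5.0007 in BMP2. Just outside it were isoforms of Ocel1 at 4.9992, Mcee at 4.9987 and Cyth2 at 4.9960 FPKM in the same order of libraries. All the cells were C2C12, an established mouse line of mesenchymal precursor cells that is widely used as a myoblast model. The mock library came from mock-transfected cells without further treatment, and the library labelled shKSRP from untreated cells transfected with shKSRP, both grown in DMEM with 20% fetal bovine serum (growth medium). The BMP2 library came from mock-transfected cells treated with recombinant BMP2 at 100 to 300 ng/ml, and its title also names differentiation medium, which is DMEM with 2% horse serum. The time of treatment was not settled by the labels. Each group held 1 library, so no difference between libraries has a replicate check, and no test was made. A ± below is the distance from an FPKM to the upper bound of its deposited confidence interval, which covers the assignment of fragments within 1 library and not the variation between cultures. The ± of a share was propagated from these, and a share of 0 or 100% carries none because the other transcripts were listed at 0, which can be a failed estimate. Values for the 3 libraries are given in the order mock, labelled shKSRP, BMP2 unless stated.

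A gene's transcripts differ where cells join exons in other combinations, use a donor (the start of an intron) or an acceptor (its end) at another position, keep an intron, or start and end transcription elsewhere. In muscle cells such choices set which forms of contractile, cytoskeletal and matrix proteins are made, and they are known to change during differentiation. Assembly software joins short fragments into transcripts and can also return pieces of a longer transcript. KSRP, the product of Khsrp, binds AU-rich elements and G-rich sequences in RNA and acts in mRNA decay, microRNA processing and splicing, and BMP2 directs C2C12 cells towards an osteoblast-like state.

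Sequences are shown first for coding segments that set a member apart from RefSeq, where the same chain of introns was a member in all 3 libraries. Their genes were chosen after the values were seen, out of 17 such segments with both flanks in coding sequence. The capitals mark the segment that 1 form holds and the other lacks, and the lower-case letters are 15 nt of flanking exon on each side of the spliced transcript. All were read from GENCODE M21 transcripts of the same gene and the same exon and intron lengths, since no genome of the build of the deposited files (mm9) was at hand. The first 3 segments are RefSeq exons that the member skipped, in Prmt1 (an arginine methyltransferase, chr7:52239450-52239503, minus strand), Tpd52l2 (a tumour protein D52 family member, chr2:181246279-181246320, plus strand) and Nmral1 (an NADPH-sensing protein, chr16:4715601-4715630, minus strand). The next pair are internal exons that the member added, in Lrrfip2 (an actin- and signalling-associated protein, chr9:111095551-111095622, plus strand) and P4ha1 (the collagen prolyl 4-hydroxylase catalytic subunit, chr10:58818098-58818168, plus strand). In P4ha1 the new exon takes the place of a RefSeq exon of the same length.
Prmt1: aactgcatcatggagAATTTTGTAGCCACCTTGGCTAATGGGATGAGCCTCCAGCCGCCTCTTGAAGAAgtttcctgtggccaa
Tpd52l2: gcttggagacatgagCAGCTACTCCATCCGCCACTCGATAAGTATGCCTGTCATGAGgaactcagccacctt
Nmral1: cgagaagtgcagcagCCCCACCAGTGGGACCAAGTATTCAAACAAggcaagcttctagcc
Lrrfip2: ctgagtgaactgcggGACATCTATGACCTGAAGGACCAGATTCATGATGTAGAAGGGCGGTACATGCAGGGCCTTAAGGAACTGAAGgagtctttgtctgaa
P4ha1: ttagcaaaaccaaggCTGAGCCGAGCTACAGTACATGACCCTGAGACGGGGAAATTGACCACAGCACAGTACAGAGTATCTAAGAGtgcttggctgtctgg

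The second set shows moved splice sites. In Sgta (a small glutamine-rich co-chaperone) the member's acceptor lay 3 nt further into the exon, so the capitals are bases that RefSeq holds and the member lacks. In Ginm1 (a glycoprotein integral membrane protein) and Pja1 (a RING ubiquitin ligase) the member's acceptor lay upstream, and the capitals are bases that the member adds. The last 3 are moved donors: Psmd4 (the proteasome's ubiquitin receptor) and Elp3 (the catalytic subunit of Elongator) gained the bases in capitals, and Mapre3 (EB3, a microtubule plus-end protein) lost them. All 3 acceptor segments end in AG, the letters with which a canonical intron ends.
Sgta: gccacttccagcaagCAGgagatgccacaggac
Ginm1: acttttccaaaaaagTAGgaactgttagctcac
Pja1: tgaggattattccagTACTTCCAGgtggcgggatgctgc
Psmd4: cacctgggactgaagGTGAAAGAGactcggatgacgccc
Elp3: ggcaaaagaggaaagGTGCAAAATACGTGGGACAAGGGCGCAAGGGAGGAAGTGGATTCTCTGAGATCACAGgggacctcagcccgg
Mapre3: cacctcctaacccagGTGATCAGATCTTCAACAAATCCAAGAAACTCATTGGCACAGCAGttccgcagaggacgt

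Segment lengths were compared only for chains in all 3 libraries that matched a GENCODE transcript typed protein_coding, which gave 40 segments. Of the 17 that lay in coding sequence with both flanks, 15 (88.2%) had a length that is a multiple of 3 nt. A segment of that length leaves the reading frame behind it in place. The exceptions among the 17 were the P4ha1 exon, which replaces another of equal length, and a donor moved by 2 nt in Shf. Of the other 23 segments, 10 (43.5%) had such a length. In these the segment or a flank was not in coding sequence, so they need not be non-coding. Both the match to protein_coding transcripts and the flank rule can select for such lengths, so nothing was read from this contrast.

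The targeted gene, Khsrp, was at 31.4 ± 0.852, 28.4 ± 0.640 and 27.1 ± 0.666 FPKM, so the library labelled shKSRP was not far below mock, and the label is kept only as a name. Khsrp had 1 member, in mock, at 15.9 ± 0.602 FPKM or 50.5 ± 1.36% of the gene, and none in the other libraries. The myoblast genes Des (desmin) at 280, 185 and 218 FPKM and Myod1 at 30.7, 34.8 and 17.3 FPKM were present in each library, while the epithelial Epcam and Cldn3 were listed at 0. Of the other myoblast genes examined, Cdh15 was at 38.3, 31.1 and 5.02 FPKM, low in BMP2, and Pax7 at 0.118, 2.90 and 0.463 FPKM. Myf5 was at 7.75, 48.4 and 9.09 FPKM and Vcam1 at 8.71, 14.9 and 7.82, both highest in the library labelled shKSRP. Sdc4 was at 71.5, 23.2 and 50.7 FPKM and Itga7 at 90.1, 67.0 and 35.9, both highest in mock. Of adipocyte genes, Pparg was at 19.5, 8.45 and 13.6 FPKM and Fabp4 at 0.613, 0.531 and 5.10. Adipoq and Plin1 were at 0.0588 FPKM or less. The osteoblast gene Alpl was at 0.0518, 0.448 and 12.8 FPKM, high in BMP2 alone, while Ibsp, another osteoblast gene, was listed at 0 in each library. Tubb3, a neuronal tubulin also made by other cells, was at 98.0, 9.83 and 92.8 FPKM, low in the library labelled shKSRP. In bulk RNA, fewer cells of a type and less RNA per cell cannot be told apart. The files used here hold no read counts, so depth is known only from an estimate. Read as counting intervals, the interval widths correspond to about 61900000, 68400000 and 60300000 fragments.

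Where a locus had members, they carried most of its FPKM in the majority of cases. The rule itself sets a floor: at a locus under 10 FPKM, a member of 5 FPKM or more holds over 50%. Members lay at 2714, 2344 and 2613 loci. Of the RefSeq loci at 10 FPKM or more, 39.7%, 34.9% and 38.1% had one. Over loci with a member, the median share of locus FPKM on members was 62.3%, 52.3% and 57.1%, with quartiles of 42.4 to 79.9%, 36.1 to 73.5% and 39.0 to 75.3%. Members held over 50% at 1804, 1255 and 1560 loci, and over 95% at 288, 189 and 267. Mock was highest and the library labelled shKSRP lowest in these shares, and the quartile ranges of the 3 libraries overlapped. A share counts short transcripts heavily, because FPKM divides by length. Counted in fragments instead, an alternative added after the data were seen, the medians were 50.6%, 45.02% and 46.6%. In the library labelled shKSRP and in BMP2 the median was thus under 50%. Over every RefSeq locus at 10 FPKM or more, 17.9%, 17.9% and 18.9% of the summed FPKM was on members, values that differed little between libraries.

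**Figure D1:**
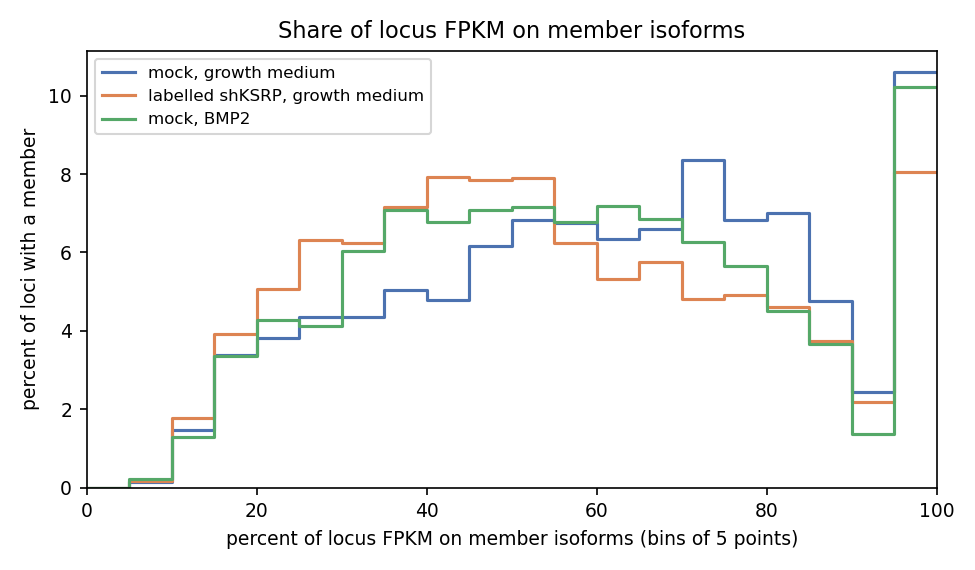
Distribution of the share of locus FPKM on member isoforms (x axis, percent, bins of 5 points) over the loci with a member in each library (y axis, percent of those loci); each line is 1 library. The medians are 62.3% for mock, 52.3% for the library labelled shKSRP and 57.1% for BMP2, and each line rises again in the last bin, where nearly all FPKM is on members.

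Most members differed from RefSeq in at least 1 intron. Such an intron was present in 2263, 1936 and 2160 members, or 72.7%, 70.7% and 70.3%. A further 14.7%, 21.1% and 17.4% had exactly the introns of a RefSeq transcript and differed only at their ends, 10.9%, 6.10% and 10.5% had a part of those introns, and 1.67%, 2.12% and 1.79% combined RefSeq introns in a way that no RefSeq transcript does. An exon that shares no base with a RefSeq exon of the locus, called new here, was found at the start of 44.7%, 40.1% and 42.4% of members, inside 4.43%, 6.28% and 4.85%, and at the end of 4.56%, 5.26% and 4.59%. Exon skipping was seen in 12.3%, 9.75% and 10.1%, and a retained intron in 2.60%, 2.56% and 2.51%. New first exons were thus far more frequent than any other exon change in each library.

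**Figure D2:**
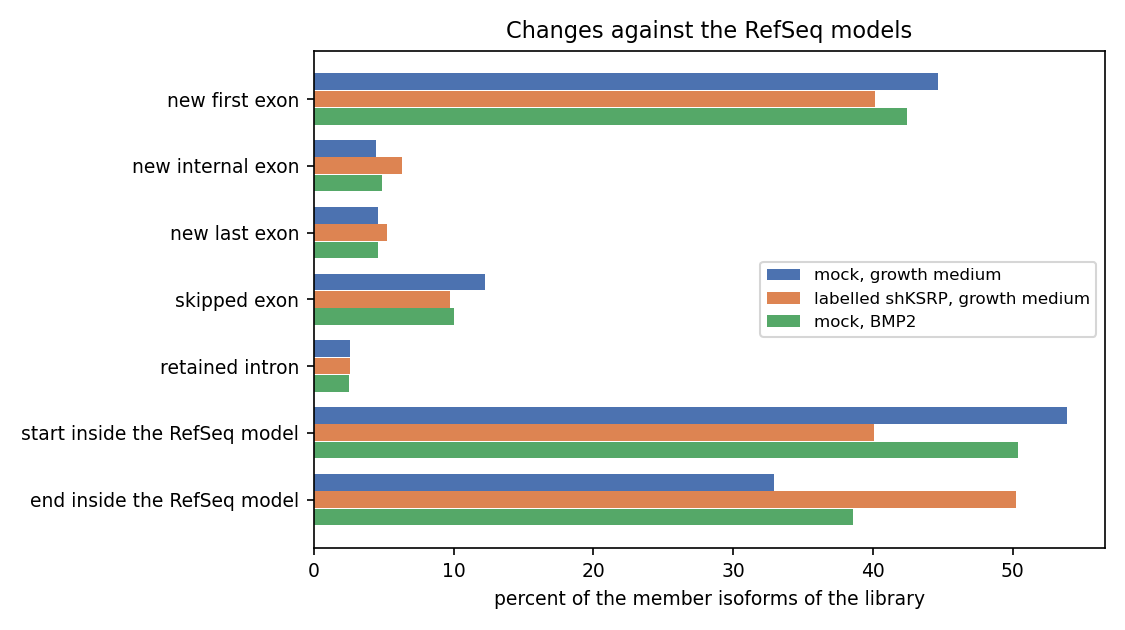
Percent of the member isoforms of each library (x axis) with each kind of change against the RefSeq models (y axis); a member can have several. New first exons stand at 44.7%, 40.1% and 42.4% and internal ones at 4.43%, 6.28% and 4.85%, and the end inside the RefSeq model is at 50.2% in the library labelled shKSRP against 32.9% in mock.

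New first exons were short, and most lay within the RefSeq model and not upstream of it. Their median length was 51, 57 and 56 nt, against 210, 216.5 and 212.5 nt for the other first exons of members. Of them, 89.5%, 82.5% and 87.4% belonged to members that start inside the RefSeq model, and 152, 122 and 124 were of 10 nt or less. The members with the highest FPKM were often of this kind. Actg1 (cytoplasmic gamma-actin) had the highest value of all, 2511 ± 19.3 FPKM in BMP2, in a transcript of 2 exons and 787 nt with a first exon of 5 nt. Rpl37 (a ribosomal protein) followed in BMP2 at 1944 ± 36.2 FPKM with a first exon of 1 nt. Pfn1 (profilin, an actin-binding protein), also in BMP2, had a 1-nt first exon at 1030 ± 16.4 FPKM. Flna (filamin A, an actin cross-linker) had 3 members in mock, at 974 ± 12.5, 586 ± 6.47 and 103 ± 1.09 FPKM. Their lengths were 701, 1321 and 6229 nt, so the shortest had the highest FPKM.

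Fn1, fibronectin, a secreted matrix glycoprotein whose extra domains EDA and EDB and variable segment are spliced in or out as whole or partial exons, showed both 3′ pieces and full-length isoforms. Its gene FPKM was 1490 ± 10.7, 1392 ± 7.77 and 1588 ± 10.1. In each library a short 3′ member was highest: 1290 ± 10.04 FPKM over 4 exons and 1082 nt in mock, 811 ± 7.35 over 4 exons and 1346 nt in the library labelled shKSRP, and 1392 ± 9.99 over 3 exons and 1169 nt in BMP2. The library labelled shKSRP also had a member of 44 exons and 8129 nt at 209 ± 1.52 FPKM (14.98 ± 0.124% of the gene), which skipped the 270-nt EDA exon (chr1:71650234-71650503) and the 273-nt EDB exon (chr1:71660337-71660609) and used an acceptor 75 nt into the exon of the variable segment. Its second full-length member, of 45 exons at 90.6 ± 1.05 FPKM, skipped only EDB. A member with the same introns as this second one was at 196 ± 1.42 FPKM in BMP2. The exons are shown because they separate these forms. The capitals mark the exon or the 75 nt, read from GENCODE M21 with 15 nt of flank on each side, or 13 nt for EDB.
Fn1 EDB exon: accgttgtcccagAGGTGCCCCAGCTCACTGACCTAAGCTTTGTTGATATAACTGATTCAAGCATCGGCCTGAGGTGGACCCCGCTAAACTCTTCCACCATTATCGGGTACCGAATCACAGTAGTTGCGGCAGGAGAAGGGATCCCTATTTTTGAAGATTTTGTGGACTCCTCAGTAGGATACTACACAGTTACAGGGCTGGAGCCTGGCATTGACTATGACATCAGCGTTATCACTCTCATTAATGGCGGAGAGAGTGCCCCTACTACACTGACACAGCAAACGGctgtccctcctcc
Fn1 EDA exon: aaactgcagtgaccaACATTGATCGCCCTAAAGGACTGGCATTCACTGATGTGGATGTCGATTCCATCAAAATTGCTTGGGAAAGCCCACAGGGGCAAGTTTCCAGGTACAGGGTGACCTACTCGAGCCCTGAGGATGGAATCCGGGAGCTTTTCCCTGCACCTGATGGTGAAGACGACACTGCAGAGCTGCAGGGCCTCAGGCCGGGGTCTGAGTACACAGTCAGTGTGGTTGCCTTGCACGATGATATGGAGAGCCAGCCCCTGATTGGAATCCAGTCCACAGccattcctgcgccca
Fn1 75-nt segment: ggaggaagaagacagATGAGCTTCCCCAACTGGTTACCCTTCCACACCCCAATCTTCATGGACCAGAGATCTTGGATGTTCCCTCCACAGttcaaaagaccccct
Counting every Fn1 transcript that spans the EDB exon, 51.5 ± 0.216% of FPKM lacked it in the library labelled shKSRP. In BMP2 the single transcript across it lacked it. For EDA the share that lacked it was 35.9 ± 0.209% in the library labelled shKSRP and was listed at 0 in BMP2. No mock transcript above 0 FPKM spanned either exon, so mock gives no value for them.

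New internal exons in members of high FPKM included those of Myl6, Palld, Acot7 and Arpc4. Myl6, the essential light chain of non-muscle and smooth muscle myosin, had a member with a 45-nt internal exon in BMP2 at 706 ± 9.41 FPKM, or 34.5 ± 0.400% of the gene. For mock this exon was in a 13-exon member at 275 ± 3.18 FPKM that runs from the neighbouring Myl6b through Myl6. Counting all transcripts across the exon, it was in 11.0 ± 0.139% of FPKM in mock and in 34.5 ± 0.400% in BMP2, and was listed at 0 in the library labelled shKSRP. Palld (palladin, an actin-bundling scaffold) had a 675-nt internal exon in a 12-exon member at 22.9 ± 0.695, 45.4 ± 0.972 and 138 ± 1.55 FPKM. BMP2 was highest for that member, and the whole gene was at 22.9, 124 and 161 FPKM. Acot7, an acyl-CoA thioesterase, and Arpc4, a subunit of the Arp2/3 complex, had new internal exons of 32 and 146 nt in members at 151 ± 5.94 FPKM in mock and 144 ± 3.04 FPKM in BMP2.

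Among skipped exons, the highest member was of Rtn4 (reticulon 4, which shapes the endoplasmic reticulum), at 261 ± 4.19 FPKM in mock, without exons of 57 and 2361 nt. Eif5a (a translation factor) in BMP2 was at 232 ± 5.17 FPKM without exons of 30 and 94 nt. Ybx3, a cold-shock RNA-binding protein, was at 172 ± 4.10 FPKM in mock without exons of 207 and 123 nt. Emp3, a membrane protein, was at 171 ± 8.63 FPKM in BMP2 without an exon of 116 nt. Retained introns had lower values. The highest were Lrp1 (an endocytic receptor) at 153 ± 1.61 FPKM in mock with a 76-nt intron kept, Ddx5 (an RNA helicase) at 145 ± 1.62 FPKM in BMP2 with 1265 nt kept, Rsrp1 in BMP2 with 1302 nt kept, Ctsa (a lysosomal protease) at 78.1 ± 2.15 FPKM in the library labelled shKSRP with 89 nt kept, and Gpi1 (a glycolytic isomerase) at 67.8 ± 1.89 FPKM in mock with 98 nt kept. The Rsrp1 member was found in all libraries, at 44.2 ± 1.15, 79.7 ± 1.47 and 106 ± 1.75 FPKM, and made up 39.1 ± 0.919, 43.8 ± 0.710 and 54.9 ± 0.802% of the gene. Its structure is listed in GENCODE as a retained intron.

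Starts and ends differed more between libraries than exon changes did. A start was called inside if over 100 nt from every RefSeq start of its locus and not over 100 nt beyond the outermost. Ends were treated likewise. Starts inside were seen in 53.9%, 40.1% and 50.4% of members, and ends inside in 32.9%, 50.2% and 38.6%. The library labelled shKSRP was thus lowest for starts inside and highest for ends inside. Starts beyond the RefSeq model made up 9.89%, 16.4% and 12.5%, and ends beyond it 19.2%, 15.3% and 17.3%. Member length went with this: the median was 1827, 2272 and 2065 nt, against 2786, 3030 and 2961 nt for the longest RefSeq transcript of the same loci, and the median number of exons was 6, 9 and 7. Members under 50% of the length of the longest RefSeq transcript were 28.2%, 21.2% and 23.9% of all and held 41.3%, 33.7% and 37.2% of member FPKM. Members longer than every RefSeq transcript of the locus were 17.8%, 22.1% and 19.2%. The library labelled shKSRP, which had the longest members, also had the largest fragment estimate, and the part of depth in these values was not tested.

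Named members with new starts and ends show both sides. Sparc, a collagen-binding matrix protein, had in the library labelled shKSRP a member of 8 exons starting far inside the RefSeq model, at 1070 ± 6.75 FPKM or 56.2 ± 0.228% of the gene. Rpsa (a ribosomal protein and laminin receptor precursor) had a member with all RefSeq introns and an end inside the RefSeq model, at 1125 ± 10.1, 1342 ± 10.03 and 1229 ± 10.5 FPKM. That member made up 53.6 ± 0.350, 89.0 ± 0.179 and 89.7 ± 0.194% of the gene, lowest in mock. In mock it started 176 nt beyond the RefSeq start, and Rpsa had 2 members there, which together held 81.7 ± 0.211% of the gene. Rpl31, another ribosomal protein, had a member of this kind at 1487 ± 17.2, 1319 ± 15.6 and 1031 ± 14.6 FPKM, and its share of 89.96 ± 0.236, 90.1 ± 0.238 and 91.1 ± 0.272% was nearly the same in each library. Canx (calnexin, a chaperone of the endoplasmic reticulum) had a member with all RefSeq introns at 122 ± 1.60, 62.6 ± 1.41 and 169 ± 1.72 FPKM, which was 76.1 ± 0.562, 23.4 ± 0.451 and 100% of the gene.

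New introns mostly had 1 end at a RefSeq splice site. Members held 2953, 2593 and 2812 of them. The donor alone was new in 52.5%, 50.1% and 52.4%, the acceptor alone in 18.2%, 22.4% and 19.5%, and both ends in 15.5%, 15.8% and 15.9%, while in 13.8%, 11.7% and 12.2% both ends were known sites joined in a new way. Distances to the RefSeq site used with the same other end had a sharp peak for acceptors only. Of 538, 582 and 549 one-sided new acceptors, 96, 115 and 109 lay 3 nt from the RefSeq acceptor. Of 1549, 1298 and 1473 one-sided new donors, 9, 15 and 6 lay 3 nt away and 19, 17 and 9 lay 4 nt away. Together the acceptors moved by 3 nt came from 205 distinct introns. In 160 of them the 3-nt segment could be read, and 159 (99.4%) ended in AG, against 297 of 2568 (11.6%) of the first 3 bases of later exons in the same transcripts. Since the segment lies directly before an acceptor, AG is what a canonical intron end requires, and tandem acceptors of this kind are known as NAGNAG sites.

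**Figure D3:**
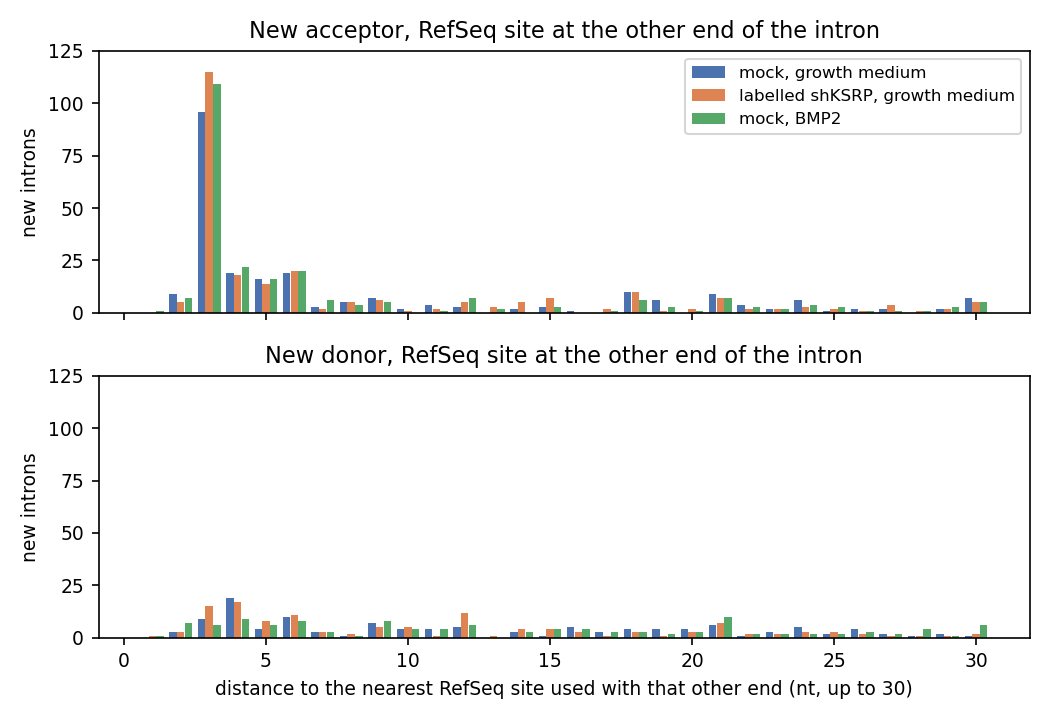
Number of new introns (y axis) by the distance in nt, up to 30, between the new splice site and the nearest RefSeq site used with the same other end (x axis), for acceptors (top) and donors (bottom); bars are libraries. The acceptor panel peaks at 3 nt with 96, 115 and 109 introns, and the donor panel has 9, 15 and 6 there.

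Most member chains were members in 1 library only. Here and below, recurrence was counted among assembled transcripts. A chain that another library held only on a RefSeq transcript did not count. The libraries together held 7406 distinct chains of introns at the members, of which 2278 were in mock only, 1831 in the library labelled shKSRP only and 2114 in BMP2 only. Mock and BMP2 alone shared 275, mock and the library labelled shKSRP 224, and the library labelled shKSRP and BMP2 347. In all 3 libraries 337 chains were members (4.55%), and 161 of the 5565 chains with a new intron (2.89%). When a chain assembled at any FPKM in another library was counted, 31.8%, 39.3% and 35.4% of members recurred. Of mock members 22.2% recurred in the library labelled shKSRP and 23.8% in BMP2. Of the members of the library labelled shKSRP 27.3% recurred in mock and 30.3% in BMP2, and of BMP2 members 24.9% recurred in mock and 26.6% did so in the library labelled shKSRP. At genes of 10 FPKM or more in every library the recurrence was 31.1%, 38.1% and 35.1%, values close to those over all members.

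Recurrence differed by kind of change. Members with exactly the introns of a RefSeq transcript recurred in 70.4%, 70.1% and 72.1% of cases. Members with an acceptor moved by 3 nt did so in 43.0%, 42.2% and 36.8%, those with a retained intron in 33.3%, 41.4% and 33.8%, and those with a new internal exon in 23.9%, 32.0% and 34.2%. Members with a new first exon recurred least among these, at 17.5%, 20.0% and 19.3%, and of members with a first exon of 10 nt or less 6.10%, 4.58% and 10.7% did. Of the 337 chains in all libraries, 145 had the introns of a RefSeq transcript, 53 a new first exon, 24 a skipped exon, 17 a new last exon, 16 an acceptor moved by 3 nt, 9 a retained intron and 8 a new internal exon.

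A later annotation holds many of the recurring structures. Each member was compared with GENCODE M21 transcripts of the same symbol and strand by the ordered lengths of introns and internal exons, which needs no shared genome build. A run of these lengths within a longer GENCODE transcript also counted as a match, so a matched member need not be a whole annotated isoform. Among members with a new intron, a match was found for 8.77%, 11.0% and 9.43% where the chain was in no other library, for 33.9%, 37.0% and 30.7% where it was in 1 other, and for 59.1%, 60.7% and 57.4% where it was in both others. The match was more frequent with recurrence in each library. RefSeq transcripts at 5 FPKM or more, the ceiling of this comparison, matched in 97.6%, 97.6% and 97.5%. Of the 161 chains with a new intron in all libraries, 95 (59.0%) matched, 91 of them to transcripts typed protein_coding, 3 to processed_transcript and 1 to lincRNA. Among all matched members with a new intron, the GENCODE transcript was typed protein_coding for 306 of 390, 373 of 420 and 314 of 391. It was typed nonsense_mediated_decay, a class of transcripts marked for degradation, for 31, 12 and 31.

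**Figure D4:**
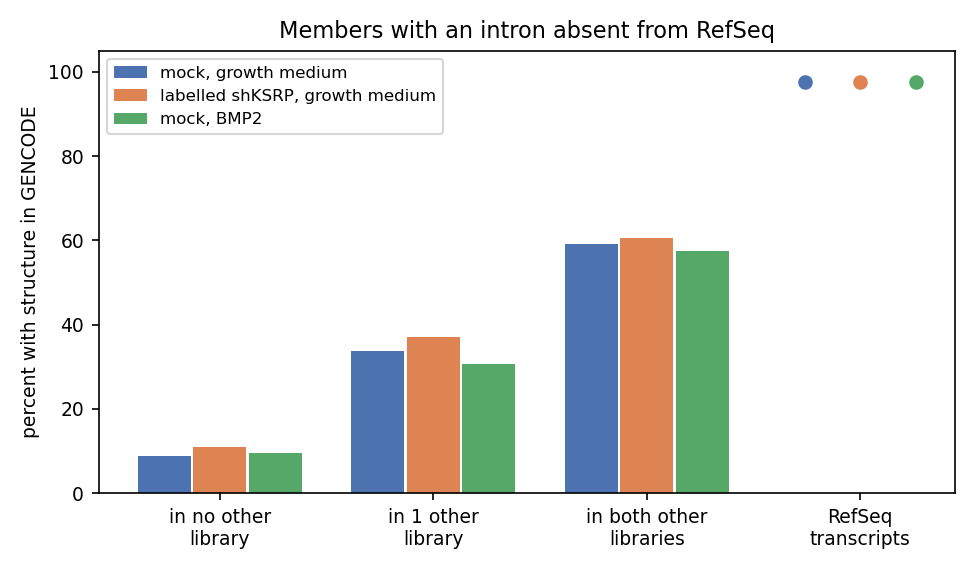
Percent of members with an intron absent from RefSeq whose structure is in GENCODE (y axis), by the number of other libraries in which their chain was assembled (bars), and of RefSeq transcripts at 5 FPKM or more (points). The bars rise from 8.77% to 59.1% in mock, 11.0% to 60.7% in the library labelled shKSRP and 9.43% to 57.4% in BMP2, below the points at 97.5% to 97.6%. A match can be to part of a longer GENCODE transcript.

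Chains with a new intron that were members in all libraries included genes of high expression. Ordered by the lowest of their FPKM values, the first 12 were Rps15a, NR_001592, Ywhaq, Eny2, Ssr2, Prmt1, Ndufs8, Thbs1, Mrpl42, Snhg8, Degs1 and Rab7. Rps15a, a ribosomal protein, had a 4-exon member with a new last exon at 844 ± 23.0, 902 ± 20.4 and 788 ± 21.6 FPKM. Levels were close, while its share of the gene was 46.8 ± 0.834% in mock and 95.3 ± 0.124 and 95.7 ± 0.137% in the other libraries. In mock another Rps15a member, of 5 exons with a new first exon, held 51.1 ± 0.825% of the gene at 921 ± 18.6 FPKM. The non-coding NR_001592 had one with 4 new introns at 314 ± 4.47, 982 ± 8.47 and 255 ± 4.13 FPKM, highest in the library labelled shKSRP, at 73.0 ± 0.449, 61.5 ± 0.252 and 64.9 ± 0.523% of the gene. Thbs1 (thrombospondin 1, a matrix glycoprotein induced by serum) had a 22-exon member that moved an acceptor by 3 nt, at 71.4 ± 1.13, 763 ± 3.39 and 166 ± 1.79 FPKM. It was 33.9 ± 0.421, 49.6 ± 0.155 and 8.76 ± 0.0927% of a gene at 211, 1539 and 1900 FPKM. In BMP2 another Thbs1 member, of 3 exons, was at 944 FPKM, a 3′ piece with RefSeq introns.

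Ywhaq (14-3-3 theta, a phosphoprotein adaptor) had a member with a new first exon at 87.2 ± 2.26, 128 ± 2.32 and 252 ± 3.46 FPKM, or 28.8 ± 0.637, 75.2 ± 0.703 and 70.7 ± 0.542% of the gene, lowest in mock on both scales. Rab7 (a late-endosome GTPase) had one with a new first exon at 158 ± 2.21, 187 ± 2.34 and 60.6 ± 1.77 FPKM. It held all of the gene's FPKM in both growth-medium libraries and 39.8 ± 0.908% in BMP2. For Eny2 (a transcription and export factor), the member with a donor moved by 72 nt held 84.7 ± 0.769, 83.5 ± 0.906 and 82.1 ± 1.05%, and for the long non-coding Snhg8 the share was 90.1 ± 0.799, 95.5 ± 0.828 and 92.4 ± 0.983%. Ssr2, a subunit of the translocon-associated complex, was at 44.5 ± 1.44, 52.7 ± 1.26 and 49.5 ± 1.36%. Degs1, a sphingolipid desaturase, was at 64.0 ± 0.875, 48.0 ± 0.976 and 54.0 ± 1.06%. The mitochondrial Ndufs8 was at 88.9 ± 0.920, 79.6 ± 1.36 and 86.0 ± 1.34% and Mrpl42 at 70.2 ± 1.58, 71.7 ± 1.66 and 86.0 ± 1.73%. In these 6 genes the new-intron isoform held from 44.5% to 95.5% of the gene, with at most 16 points between libraries.

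**Figure D5:**
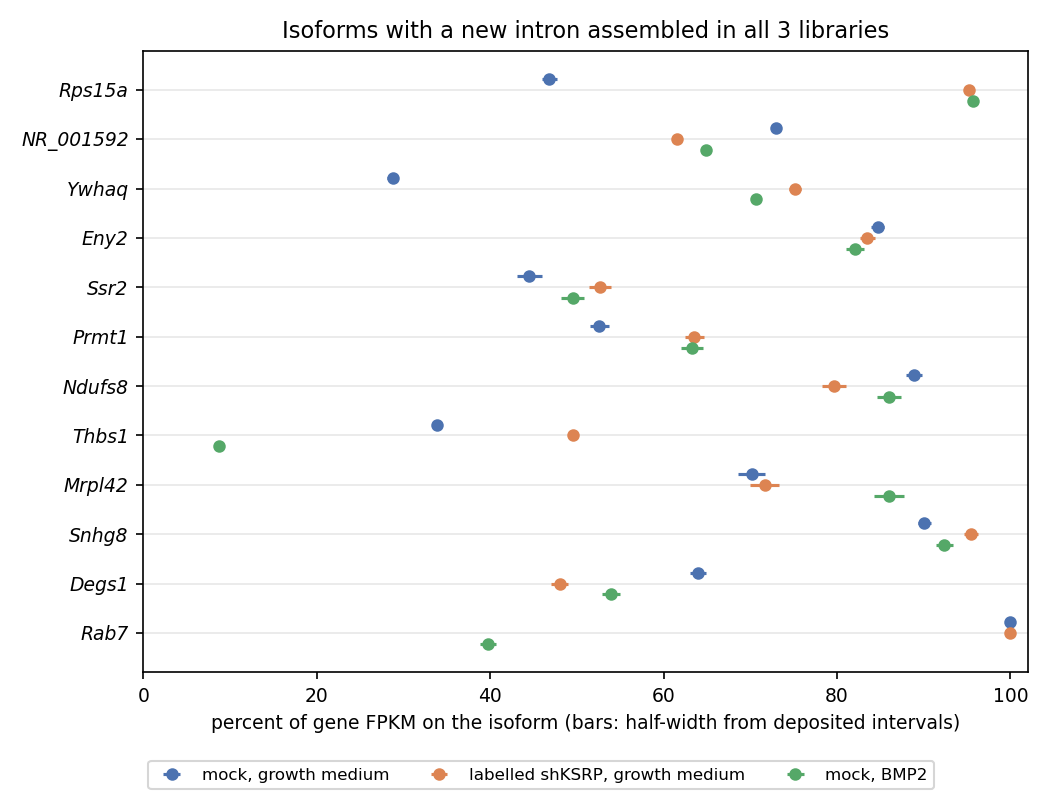
Percent of gene FPKM (x axis) on the 12 isoforms with a new intron that were members in all libraries and had the highest lowest FPKM (y axis, genes); points are libraries and bars the ± from the deposited intervals. Ywhaq and Rps15a sit far lower in mock (28.8% and 46.8%) than in the other libraries, Rab7 is lower in BMP2 (39.8%), and Eny2 lies between 82.1% and 84.7%. In mock a further Rps15a member, not plotted, held 51.1% of the gene.

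For the segments printed above, the level was also summed over every transcript of the library, RefSeq or assembled, that spans the site, so that a change elsewhere in a transcript does not count; this sum was added after the data were seen. The Prmt1 exon was skipped in 52.6 ± 1.05, 63.6 ± 1.11 and 63.3 ± 1.2996% of the spanning FPKM, from members at 98.4 ± 2.97, 88.4 ± 2.55 and 74.0 ± 2.57 FPKM. The Tpd52l2 exon was skipped in 41.0 ± 1.52, 62.7 ± 1.36 and 39.7 ± 1.57%, high in the library labelled shKSRP. The Nmral1 exon was skipped in 80.9 ± 2.68, 100 and 77.0 ± 4.04%, where the other form was listed at 0 in the library labelled shKSRP. The Lrrfip2 exon was present in 73.8 ± 2.22, 100 and 100%, from members at 10.5 ± 0.494, 13.4 ± 0.486 and 13.5 ± 0.521 FPKM. The new P4ha1 exon was in 21.9 ± 1.58, 44.4 ± 1.57 and 40.1 ± 1.16%, and its FPKM was 6.62 ± 0.588, 14.9 ± 0.841 and 16.5 ± 0.629. Mock was lowest for the Prmt1, Lrrfip2 and P4ha1 events. For Prmt1 and P4ha1 the interval of mock did not overlap those of the other libraries, while for Lrrfip2 the form without the exon was listed at 0 in both others, which leaves no interval to compare.

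The Sgta acceptor that drops 3 nt was used in 43.7 ± 1.58, 74.2 ± 1.27 and 67.7 ± 1.33% of spanning FPKM, lowest in mock. The Ginm1 acceptor that adds 3 nt was used in 75.6 ± 2.60, 84.6 ± 1.95 and 80.9 ± 2.04%. The Pja1 acceptor was used in 72.5 ± 1.64, 61.3 ± 1.62 and 64.5 ± 1.62%. The Ginm1 and Pja1 shares thus stayed within 12 points across libraries, and Sgta differed by over 20. Among donors, Psmd4 was at 32.7 ± 1.04, 37.1 ± 1.14 and 34.7 ± 1.28%, close in all libraries. The longer Elp3 form was at 60.3 ± 2.70, 73.0 ± 1.58 and 59.3 ± 2.04%, and the shorter Mapre3 form at 53.2 ± 3.31, 36.3 ± 1.85 and 20.7 ± 1.49%. As a share of the gene the Elp3 member was at 16.3 ± 1.09, 73.0 ± 1.58 and 38.8 ± 1.91%, a wider gap than at the splice site itself, since other Elp3 transcripts do not span it. Txndc9, a thioredoxin-domain protein, showed the same contrast, with 18.6 ± 1.16, 91.2 ± 0.447 and 62.5 ± 1.93% of the gene and 70.9 ± 1.63, 91.2 ± 0.447 and 62.5 ± 1.93% of the FPKM across its moved donor.

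The comparisons of the library labelled shKSRP with mock and of BMP2 with mock share the mock library, so their values are given side by side and not set against each other. The share of locus FPKM on members was at least 25 points higher in the library labelled shKSRP than in mock at 646 of 5059 loci (12.8%) and lower at 1052 (20.8%), over loci of 10 FPKM or more in both. It was higher in BMP2 than in mock at 713 of 5171 (13.8%) and lower at 872 (16.9%), and higher in the library labelled shKSRP than in BMP2 at 625 of 5312 (11.8%) and lower at 872 (16.4%). Of the loci past this limit, 80.2%, 82.0% and 81.9% had no member at all in 1 of the libraries. At the 1107, 1252 and 1227 loci with a member in both, 30.4%, 22.8% and 22.1% were past it, and the median size of the difference was 15.3, 12.3 and 12.001 points.

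Shares of RefSeq transcripts were set beside those of recurring members. Both are shares of the gene's FPKM, so a RefSeq share also falls where a member is assembled at its gene in 1 library. The RefSeq transcripts compared were at 5 FPKM or more in all libraries, and the number compared differed by pair. Between the library labelled shKSRP and mock, 417 of 1572 (26.5%) were at least 25 points apart in their share of the gene. It was 340 of 1676 (20.3%) between BMP2 and mock and 291 of 1663 (17.5%) between the library labelled shKSRP and BMP2. Of the 337 member chains in all 3 libraries, only a part was compared in each pair. Among those, 48 were higher and 30 lower of 267 (29.2%), 28 higher and 20 lower of 268 (17.9%), and 33 higher and 21 lower of 271 (19.9%). The median size of the difference was 14.8, 10.05 and 10.4 points for these members and 13.4, 10.3 and 9.91 points for RefSeq transcripts. The medians of both kinds were within 1.5 points of each other in each pair of libraries.

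At some loci the share passed between all and none. All FPKM was on members in the library labelled shKSRP and none in mock at 16 of 4736 single-gene loci, and the reverse held at 36. For BMP2 against mock the counts were 14 and 33 of 4841, and for the library labelled shKSRP against BMP2 12 and 17 of 4965. Hnrnpa2b1, an RNA-binding protein of the hnRNP family, was at 335 ± 3.62 FPKM in the library labelled shKSRP, all on 2 members that combine RefSeq introns in a new way, against 306 ± 3.36 in mock and 240 ± 3.02 in BMP2 with none on members. The level in mock was close while the share went from none to all. Lars2, a mitochondrial leucyl-tRNA synthetase, was at 174 ± 2.99 FPKM in the library labelled shKSRP, all on members, against 65.3 ± 1.03 in mock and 48.0 ± 0.899 in BMP2 with none. The nuclear exporter Xpo1 and the transposon-derived Zbed5 had the same pattern, Xpo1 at 39.8 ± 0.867 against 49.9 ± 0.874 and 27.4 ± 0.696 FPKM, and Zbed5 at 119 ± 4.46 against 33.8 ± 0.940 and 25.7 ± 0.832.

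In the other direction, Mmp14 (a membrane-bound collagenase) was at 168 ± 1.72 FPKM in mock, all on 1 member with the RefSeq introns and a 3′ end 898 nt beyond RefSeq, and at 227 ± 2.27 in the library labelled shKSRP with none. Ak1 (adenylate kinase of muscle) was at 142 ± 2.64 FPKM in mock, all on 2 members with RefSeq introns, and at 85.9 ± 1.93 and 186 ± 3.04 in the others with none. Mis12, Idh1, Mkrn2 and Timmdc1 also went from all in mock to none in the library labelled shKSRP, and Car13, Map3k15, Bad, Mkrn2 and Timmdc1 from all in mock to none in BMP2. Hadha, of mitochondrial fatty acid oxidation, had the opposite pattern in both comparisons, at 30.8 ± 0.715 FPKM with no member in mock, and 60.3 ± 1.11 and 74.99 ± 1.73 all on members in the others. Asf1a was all on members in the library labelled shKSRP and had none in mock, as did Map4, Tns1, Acot13, Ftsj3 and the locus of Mir31 in BMP2 against mock. Between the other pair, Smu1 and Exoc1 were all on members in the library labelled shKSRP, and Vti1b, Osbpl9, Ano6, Znhit1, Vasn and Ftsj3 in BMP2.

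Some loci had a member in both libraries and still differed by most of their FPKM; this choice of loci was added after the values were seen. Akt1, a kinase of insulin and growth-factor signalling, was at 118 ± 1.92, 139 ± 2.03 and 130 ± 1.89 FPKM. Members held 17.0 ± 0.739, 15.2 ± 0.717 and 100% of it, with a 14-exon BMP2 member whose first exon lay 4419 nt beyond the RefSeq start. Flna members held 100% of 1663 ± 14.1 FPKM in mock and 17.8 ± 0.209% of 357 ± 1.74 in the library labelled shKSRP. Snx9, a membrane-remodelling sorting nexin, was at 46.5 ± 0.964, 44.5 ± 1.28 and 38.5 ± 1.32 FPKM with 100, 16.7 ± 1.22 and 23.0 ± 1.63% on members. Clstn1 (calsyntenin 1) had 100% on 2 members in mock, at 15.1 ± 0.558 and 14.4 ± 0.551 FPKM, and 19.3 ± 1.02% on a member in the library labelled shKSRP. Its exon-skipping chain was the one found in both. BC005537, with RefSeq introns and other ends, was at 5.74 ± 0.454, 63.8 ± 0.960 and 20.3 ± 0.814 FPKM, or 14.8 ± 1.06, 100 and 32.0 ± 1.07% of the locus.

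The level of genes with a member is given beside that of all genes. Over 11455 genes, FPKM was at least 2-fold higher (after adding 1) in the library labelled shKSRP than in mock for 11.0% and lower for 12.9%. Of 3789 host genes with a member in either library, 401 (10.6%) were higher and 585 (15.4%) lower, with a median log2 difference of -0.09 against -0.02 over all genes. BMP2 was higher than mock for 9.22% and lower for 8.90% of all genes, and for 410 (10.6%) and 463 (11.9%) of 3875 host genes, with medians of -0.02 and 0.03. The library labelled shKSRP was higher than BMP2 for 6.03% and lower for 8.65%, and for 221 (6.19%) and 306 (8.58%) of 3568 host genes, with medians of -0.07 and -0.02. Members were selected on FPKM in these libraries, so nothing was read from these shares.

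Lists of genes gave the share with a member among genes of 10 FPKM or more, beside 38.8%, 34.1% and 37.3% over all genes. Extracellular matrix and bone genes had members at 12 of 27, 15 of 30 and 24 of 35 genes (68.6% in BMP2), SR proteins and hnRNPs at 21, 19 and 17 of 37, and muscle genes known for alternative splicing at 8 of 24, 13 of 29 and 10 of 28. AU-rich-element binding and decay factors had them at 8 of 21, 9 of 20 and 10 of 22, cell cycle and DNA replication genes at 16 of 37, 14 of 33 and 9 of 29, cytosolic ribosomal proteins at 17, 15 and 14 of 37, and serum and immediate-early genes at 8 of 27, 4 of 16 and 7 of 19. The matrix and bone list in BMP2 was the highest of these shares. In that library the bone genes Alpl, Sp7 and Bglap were also highest (Sp7 at 0.187, 0.527 and 8.12 and Bglap at 7.34, 1.21 and 13.3 FPKM), while Ibsp was listed at 0 in each library. The part of that change in the cells in the share was not tested. The serum list in the library labelled shKSRP was the lowest, at 4 of 16.

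In the matrix list, Sparc had no member in mock at 691 ± 4.44 FPKM, and members at 56.2 ± 0.228% of 1904 ± 8.80 and 15.5 ± 0.186% of 1857 ± 8.23 FPKM in the others. Timp1, an inhibitor of matrix proteases, had a member only in BMP2, at 481 ± 8.91 of 1034 ± 12.1 FPKM, with none at 970 and 227 FPKM. Among RNA-binding genes, Hnrnpk had members at 64.4 ± 0.561, 29.7 ± 0.498 and 17.1 ± 0.531% of 343, 315 and 292 FPKM, highest in mock. Srsf2 had one only in mock, at 164 ± 4.05 of 286 FPKM. Hnrnpab in mock is not resolved: its interval, ± 751 on 458 FPKM, reaches 0. Among AU-rich-element factors, Hnrnpd (AUF1) had all of its FPKM on members at 205 ± 4.34 and 32.5 ± 0.938 in growth medium and 90.7 ± 0.459% of 77.8 in BMP2. Elavl1 (HuR, an mRNA-stabilising factor) had none in mock at 21.8 FPKM and 90.1 ± 0.543 and 89.8 ± 0.605% of 46.5 and 39.7 in the others, with a 58-nt new internal exon in both. Pabpc1, the poly(A)-binding protein, had a 4-exon member in mock alone, at 430 ± 8.08 of 719 FPKM, and Cnot1, the deadenylase scaffold, had members in the others at 59.1 ± 0.862 and 74.7 ± 0.748%. Cnot1 had no member in mock, where its level is not resolved either, at 22.8 ± 45.1 FPKM.

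Among muscle genes, Tpm2 (beta-tropomyosin) had members at 70.4 ± 0.498, 84.5 ± 0.417 and 81.4 ± 0.349% of 399, 355 and 719 FPKM, and Nfix (a transcription factor of fetal myogenesis) had all of 22.6 ± 0.649, 76.6 ± 1.17 and 84.6 ± 0.968 FPKM on members. Both were above 70% in each library. Of cell cycle genes, Cdk1 had members in all, at 76.0 ± 0.613, 84.8 ± 1.13 and 87.5 ± 0.752% of 214, 34.8 and 68.6 FPKM. Tk1 and Rrm2, of nucleotide synthesis, had a member in mock alone, at 131 ± 3.53 of 208 FPKM and 91.9 ± 2.31 of 323 FPKM. Mcm6, of the replicative helicase, had one in mock at 131 ± 5.14 FPKM and one in the library labelled shKSRP at 17.8 ± 0.630. Of ribosomal protein genes, Rps6 had a member at 1329 ± 12.6 and 870 ± 10.5 FPKM in growth medium and none in BMP2. Of serum genes, Myc had a 2-exon member in mock alone, at 51.4 ± 2.27 of 66.7 FPKM. Ankrd1 had one in BMP2 alone, at 80.8 ± 3.60 of 242 FPKM, and Plaur in each library, at 27.9 ± 1.38, 70.6 ± 1.96 and 40.6 ± 1.44% of 123, 38.1 and 92.2 FPKM.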

How the data were processed

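RNA-seq of 3 C2C12 libraries, 1 per group, was analysed from 1 transcript list per library. The authors deposited FPKM values with interval bounds as attributes of each transcript, in mm9 coordinates. CASAVA 1.8, TopHat 1.4.1, Bowtie 0.12.7, and Cufflinks 1.3.0 are listed in the submitters' processing notes, while settings, strand use and read totals were not stated there. Per the labels' protocols, poly(A) RNA was selected and amplified by 18 PCR cycles. Introns, exons and ends of each member were compared with the RefSeq transcripts of its locus (Python 3.11, numpy 2.4.6). Ends within 100 nt were called near, and shares were called apart at 25 points. Symbols for 28025 of 28222 accessions came from the RefSeq table (GRCm38.p6) and 171 from GENCODE M21. Named genes were those highest by FPKM per library, class, list or share difference, 12 chains in all libraries, the genes nearest the FPKM limit and Khsrp; equal share differences were ordered by locus FPKM. The members and lists were chosen with earlier results of these data known. The classification was tested on simulated data, edited RefSeq models each compared with its own unedited model, and recovered 200 of 200 models for each of 6 changes. New first exons, new last exons and moved donors were not among these changes. Alternatives varied the FPKM minimum, the end tolerance, the unit, the recurrence rule and the locus minimum.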

Additional observations from a re-analysis of the deposited data

How the results depend on the processing

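No paired analysis was possible because each group holds 1 library. Over the alternatives, 94 values moved by no more than their interval, or for counts by no more than 1.5-fold, and 53 by more. The cause was not tested. These are not the deposited FPKM intervals: that of the median share was taken over the loci of 1 library. None covers the variation between cultures. In the order mock, labelled shKSRP, BMP2: with a minimum of 1 FPKM members were 5635, 5490 and 5880, and with 10 FPKM 2011, 1639 and 1881. The median share of locus FPKM was 65.6%, 55.3% and 60.4% with all assembled transcripts and 50.6%, 45.02% and 46.6% in fragments. At a 10 FPKM minimum, new first exons were 48.4% in mock and 45.3% in BMP2, new internal exons 3.38% and 3.88% there, retained introns 1.44%, 1.71% and 1.81%, skipped exons 10.7%, 8.18% and 8.13%, starts inside 57.2% in mock, and ends inside 38.3%, 57.5% and 44.2%. With an end tolerance of 25 nt ends inside were 49.8%, 62.2% and 56.6%, and with 200 nt 25.2%, 40.1% and 29.9%, while starts inside were 38.0% in the library labelled shKSRP. Without members whose first or last exon is 10 nt or less, added after the data were seen, new introns were at 70.8%, 68.8% and 68.6%, new first exons at 42.1%, 37.8% and 40.3%, new last exons at 3.61%, 4.24% and 3.75%, starts inside at 51.9% and 38.0% in mock and the library labelled shKSRP, and recurrence at 33.5% and 41.6% there. Requiring 5 FPKM in the other library gave a recurrence of 26.8%, 33.2% and 31.2%. New introns in place of whole chains recurred in 29.0%, 35.1% and 34.2% of members with one. With a locus minimum of 1 FPKM, 1084 loci had a share 25 points higher in BMP2 than in mock. In each alternative named here for member counts and for ends inside, the library labelled shKSRP had the fewest members and the highest share of ends inside. Just below the limit, at 4 to 5 FPKM, there were 382, 412 and 393 further spliced transcripts; the part of depth in which low isoforms were assembled was not tested.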

Other observations

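Members lay on the minus strand more often than expressed RefSeq loci as a whole. Of members 60.6%, 58.5% and 61.4% were on the minus strand in mock, the library labelled shKSRP and BMP2, against 50.2%, 49.7% and 50.1% of all RefSeq loci at 10 FPKM or more. The loci at that level that hold a member were on the minus strand in 59.9%, 56.9% and 60.5%, close to the members. Of plus-strand loci at that level 32.0%, 29.8% and 30.1% had a member, and of minus-strand loci 47.5%, 39.97% and 46.0%. The excess was present for members with a new first exon (60.2%, 58.1% and 60.7%) and for those with exactly the introns of a RefSeq transcript (58.2%, 57.3% and 59.2%). It was small where the end lay inside the RefSeq model (55.9%, 51.9% and 53.4%) and largest, among these classes, where the end was near a RefSeq end (64.0%, 66.8% and 67.3%). The cause was not tested.

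First exons of 10 nt or less were in 164, 131 and 140 members and carried 12.98%, 9.34% and 16.4% of member FPKM. None of these chains was in both other libraries. Members that join exons of 2 RefSeq genes numbered 20, 24 and 20, and none matched a GENCODE transcript under a symbol of their locus. A joined transcript listed under another gene name could not match, so nothing was read from this. New introns inside 1 RefSeq exon were in 138, 91 and 109 members, and 23.9%, 41.8% and 32.1% of those members recurred in another library.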
